A study of Mus musculus with 43 samples.

Results

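The early transcriptional response to retinoic acid (RA) was examined in wild-type (WT) mouse germ cell cultures after 4 h. The comparison takes its groups from the labels: 3 libraries treated with all-trans RA for 4 h, one each from the culture lines WT17, WT23 and WT25, and the 6 libraries of the same lines that bracket them in time, 3 untreated at 0 h and 3 given the solvent DMSO at 0.01% for 8 h. These are 9 of the 42 libraries in the deposited table. A gene was called early only where RA 4 h differed in the same direction from untreated 0 h and from DMSO 8 h. The DMSO 4 h libraries were left out of the call with their values known: line WT23 had Stra8, the gene of largest early rise, at 11.59 log2, and the authors' column name for line WT25 carries a remark.

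All 9 cultures grew from THY1+ testis cells of WT mice and were held between passages 3 and 12 on STO cells, a mouse fibroblast feeder line. The medium held no serum; its growth factors were FGF2 at 1 ng/ml, GDNF at 20 ng/ml and soluble GFRA1 at 150 ng/ml. The labels give the RA concentration as 0.01 M without saying whether this is the stock or the culture, so the dose is taken as unknown. The labels do not say that the 3 lines came from separate mice. With line as a block, steady differences between lines are taken out, and p-values measure how far group differences varied from line to line. That spread may be partly technical. Feeder RNA is mouse RNA and is counted with that of the germ cells, and in such bulk libraries fewer cells of a type and less RNA per cell cannot be told apart.

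RA is the vitamin A derivative that starts spermatogonial differentiation in the testis. It binds the nuclear receptors RARA, RARB and RARG, which sit with RXR partners on direct repeats in target promoters and enhancers. In spermatogonia RA is known for inducing Stra8, the factor needed for meiotic entry, and the receptor tyrosine kinase Kit, while the GDNF and FGF2 in the medium hold cells undifferentiated through RET, GFRA1 and FGF receptors.

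Levels are log2 values of counts that the authors had scaled between libraries, as deposited, and differences are RA 4 h minus control in log2 units with the standard error of the model (SE, n = 3 lines per group). Where 2 differences are given for a gene, the first is from untreated 0 h and the second from DMSO 8 h. Coordinates of genes are on GRCm38.p4, as in the authors' table. Germ cell markers were high in all 9 libraries, with all 14 members tested and a summed level, in units of 1000 scaled counts, of 127 to 134 in RA 4 h, 117 to 127 in untreated and 105 to 117 in DMSO 8 h cultures. Feeder fibroblast markers, 27 of 28 tested, summed to 38.2 to 46.8 of the same units in RA 4 h, 64.8 to 71 in untreated and 47.5 to 61.7 in DMSO 8 h cultures, and every RA library lay below every control library. Of the other cells a testis culture could hold, 6 of 8 Leydig cell markers and 6 of 12 macrophage markers, Csf1r and Adgre1 among them, lay below the filter on low values, while Mrc1, at 8.35, and Cd68, at 7.28 in RA 4 h, lay well above it. Of 10 endothelial markers 7 were tested and 1 was early (14.3%, against 11.3% of all genes): Pecam1, an adhesion molecule, higher by 0.60 and 0.67. The summed level of these endothelial markers was 1.15 to 1.37 units in RA 4 h, 1.16 to 1.27 in untreated and 1.1 to 1.27 in DMSO 8 h cultures. The part of such cells in the early changes was not tested. Depth per library is not kept in these values and is unknown.

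Of 15865 genes tested, 1791 were early, 11.3% of them, with 950 higher (5.99%) and 841 lower (5.3%) in RA 4 h (limma, Benjamini-Hochberg adjusted p under 0.05 in both comparisons). Taken singly, the comparison with untreated called 4414 genes (27.8%) and that with DMSO 8 h called 2975 (18.8%). DMSO 8 h itself differed from untreated in 2314 genes (14.6%), and 1035 of the 2560 genes called only against untreated had moved with the same sign in DMSO 8 h. A further 63 genes were called against both controls in opposite directions and are not early. The higher genes included the larger changes. Taking as size the smaller of a gene's 2 differences, the median was 0.29 for the higher and 0.36 for the lower genes, but 48 higher genes and no lower gene reached 2-fold, and the largest size was 4.25 among the higher and 0.94 among the lower genes. The 3 RA libraries lay above all 6 controls for 792 early higher genes, a pattern that 8.76% of all tested genes showed, and below all 6 for 625 early lower genes, against 6.9% of all tested genes. Without the line term in the model 889 genes were early, and without line 25 the count was 678. With each library centred on its median the split moved to 1277 higher and 680 lower, 65.3% higher against 53% as deposited.

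**Figure D1:**
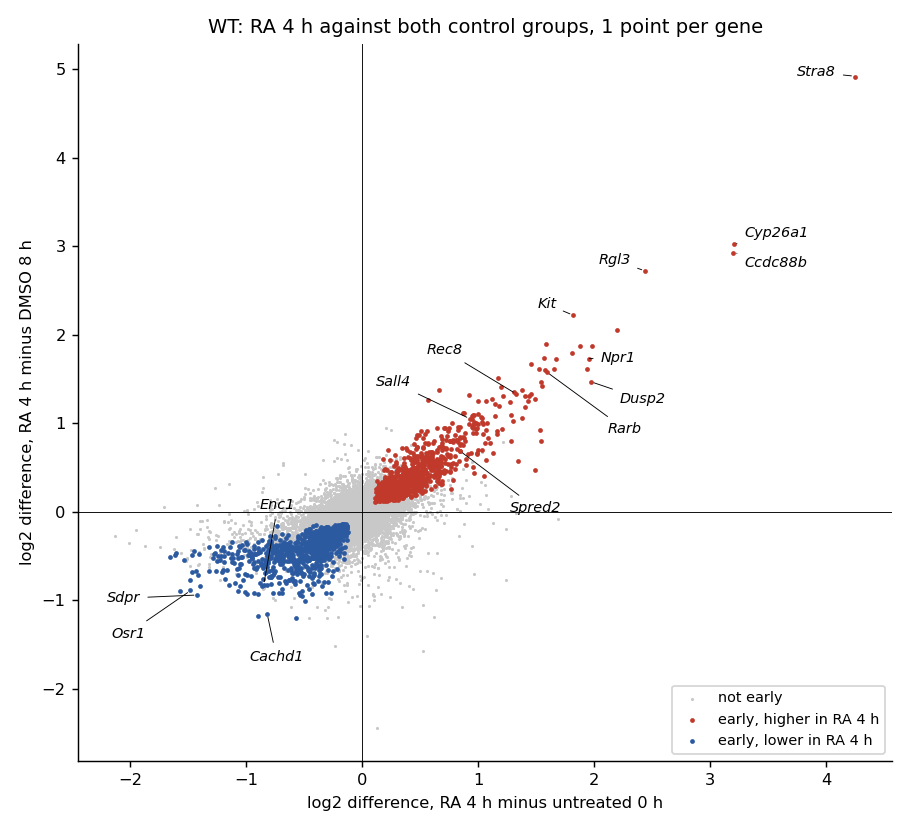
Each point is a gene, with the log2 difference of RA 4 h from untreated 0 h on the x axis and from DMSO 8 h on the y axis. The 950 early higher genes (red) reach past 4 on both axes with Stra8, whereas no early lower gene (blue) is as much as 1 below both controls.

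Genes of differentiating spermatogonia included the largest early change. Of 21 such genes tested, 7 rose and 1 fell (38.1% early, against 11.3% of all genes). This list, with Stra8 and Tcerg1l in it, was chosen with earlier results of these data known. Its median difference was 0.10 from untreated and 0.12 from DMSO 8 h. Over all genes tested both medians were near 0. Stra8 (chr6:34920163-34939344, + strand) stood at 12.52, 12.13 and 12.30 in RA 4 h libraries of lines 17, 23 and 25, against 8.91, 7.65 and 7.63 in untreated and 7.29, 7.6 and 7.31 in DMSO 8 h cultures. Every RA library was above every control, and the untreated culture of line 17 stood apart from the other two. The rise was 4.25 ± 0.34 over untreated and 4.92 ± 0.34 over DMSO 8 h, the second 30.2-fold (SE; limma adjusted p = 0.0018 for both). Without line 25 the Stra8 call was lost, at adjusted p = 0.06 and differences of 4.05 and 4.88.

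Kit, the receptor for stem cell factor and a marker of differentiating spermatogonia (chr5:75574916-75656722, + strand), was at 11.20, 11.17 and 10.91 in RA 4 h, 9.50, 9.10 and 9.22 in untreated, and 8.86, 8.93 and 8.85 in DMSO 8 h cultures. It rose by 1.82 ± 0.08 over untreated and 2.22 ± 0.08 over DMSO 8 h, while DMSO 8 h lay 0.40 below untreated (limma adjusted p = 0.0045). Tcerg1l, the second gene in the study's title and a relative of a transcription elongation regulator, averaged 7.17 ± 0.16 in RA 4 h, 5.52 ± 0.11 in untreated and 5.56 ± 0.27 in DMSO 8 h cultures (SD, n = 3), a rise of 1.65 and 1.62. The groups did not overlap for either gene. Ccnd2, the D-type cyclin of differentiating spermatogonia, rose by 0.34 and 0.24. The member that fell was Dmrtb1, a factor that coordinates the mitosis-to-meiosis switch, at 7.88 in RA 4 h against 8.65 in untreated and 8.60 in DMSO 8 h cultures. Dazl, a germ cell RNA-binding protein, rose by 0.14 and 0.28 with overlapping libraries, and its call was lost without the line term and without line 23 or 25.

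Among meiotic genes Rec8 changed most. Rec8, the meiosis-specific cohesin subunit (chr14:55618037-55625395, + strand), was at 10.94, 10.94 and 10.93 in RA 4 h, 9.69, 9.60 and 9.54 in untreated and 9.53, 9.75 and 9.54 in DMSO 8 h cultures. Its rise was 1.33 ± 0.06 over both controls, with RA libraries nearly identical. Of 30 meiotic genes tested, 4 rose and 0 fell, 13.3% early and so near the 11.3% of all genes. The other 3 rises were small: Sycp1 and Sycp3, components of the synaptonemal complex, rose by 0.31 and 0.21 over untreated, and Tex15 by 0.15. The calls of Sycp3 and Tex15 were lost without line 25, that of Sycp3 also without the line term and that of Tex15 also without line 23. Sycp3 overlapped the controls in its libraries and shares exon bases with a gene on the other strand. Dmc1, the meiotic recombinase, was called against untreated alone, with means of 10.40 in RA 4 h, 10.17 in untreated and 10.25 in DMSO 8 h cultures (0.23 higher than untreated and 0.15 higher than DMSO 8 h).

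**Figure D2:**
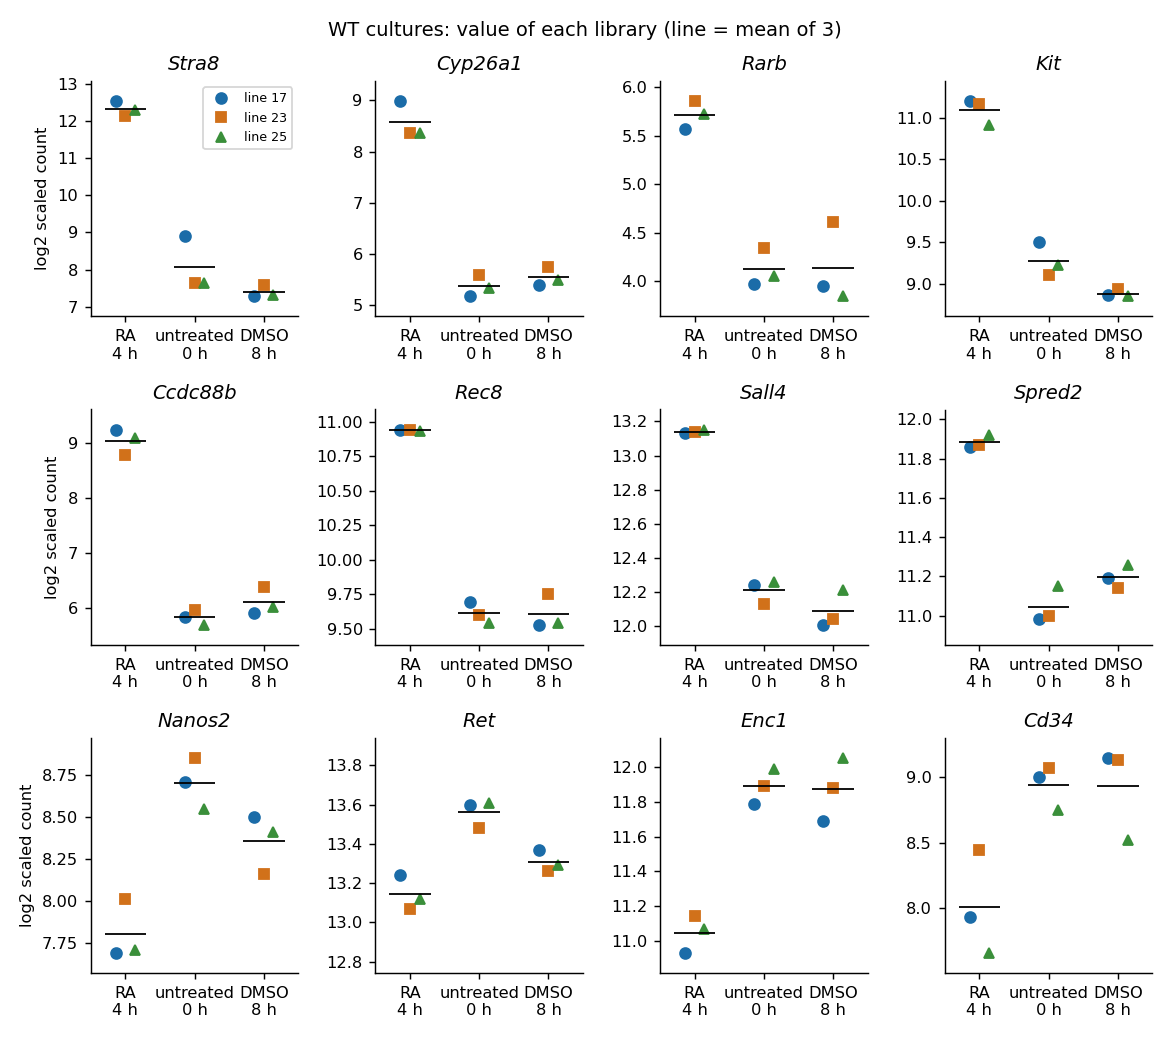
Log2 scaled count of 12 early genes in each of the 9 libraries, by group from left to right (RA 4 h, untreated 0 h, DMSO 8 h), with the 3 lines as symbols and the group mean as a bar. The RA libraries do not overlap the 6 controls in any panel; mean differences exceed 3 for Stra8, Cyp26a1 and, against untreated, Ccdc88b, and stay under 1 for Ret, Nanos2 and Cd34.

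Genes that handle RA itself were among those that moved. Cyp26a1, the hydroxylase that degrades RA (chr19:37697808-37701528, + strand), was at 8.98, 8.37 and 8.36 in RA 4 h, 5.18, 5.59 and 5.33 in untreated and 5.39, 5.75 and 5.50 in DMSO 8 h cultures. It rose 9.21-fold over untreated and 8.13-fold over DMSO 8 h (3.20 and 3.02 ± 0.17; limma adjusted p = 2.1e-08 and 5.1e-08). Rarb, an RA receptor that is itself a classical RA target (chr14:16430842-16575472, - strand), was at 5.57, 5.85 and 5.72 in RA 4 h, 3.97, 4.34 and 4.06 in untreated and 3.95, 4.61 and 3.85 in DMSO 8 h cultures, a rise of 1.59 and 1.58. All RA libraries were above all controls for both genes. Dhrs3, which reduces retinaldehyde to retinol, rose by 0.69 and 0.83, and Bco1, which cleaves beta-carotene, by 0.92 and 0.99. Aldh1a3, which makes RA from retinaldehyde, fell by 0.38 and 0.54. In all, 5 of 19 tested genes of RA metabolism, storage and binding rose and 1 fell (31.6% early, against 11.3% of all genes). Stra6, the retinol transporter gene, also rose but was near the filter level, and its call was lost without the line term and without any one line. The other hydroxylase tested, Cyp26b1, averaged 4.30 in RA 4 h, 4.14 in untreated and 3.94 in DMSO 8 h cultures and was not called.

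Among 12 receptors and coregulators tested, 3 rose and 1 fell (33.3% early, against 11.3% of all genes). Besides Rarb, the corepressor gene Nrip1 rose by 0.60 and 0.56 and the coactivator gene Ncoa3 by 0.31 and 0.29, and the coactivator gene Ncoa1 fell by 0.39 and 0.29, a call lost without the line term and without any one line. Nrip1 lost its call without line 25. Rara and Rarg were called against untreated alone: Rara averaged 10.27 in RA 4 h, 10 in untreated and 10.41 in DMSO 8 h cultures, and Rarg 10.12 in RA 4 h, 9.77 in untreated and 9.98 in DMSO 8 h cultures. Among 17 genes known as RA targets in other tissues, 2 rose and 4 fell (35.3% early). Tgm2, the tissue transglutaminase, rose by 0.47 and 0.63, whereas the homeobox genes Meis1 and Meis2 and the orphan receptor gene Nr2f1 fell, by 1.32 and 0.66, 1.05 and 0.59, and 0.92 and 0.65. DMSO 8 h itself lay 0.66 below untreated for Meis1 and 0.46 for Meis2 (limma adjusted p = 0.0021 and 0.016). With DMSO alone at 4 h in knockout lines, described further on, Meis1, Meis2 and Nr2f1 were lower too, without a call. Feeder fibroblast markers were also lowest in RA 4 h, and their part in the fall of these 3 genes was not tested. The Tgm2 and Meis1 calls were lost without the line term, and those of Tgm2 and Meis2 without line 25.

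RAR and RXR pairs bind best to 2 half-sites in the same direction with 5 bases between them. The RefSeq promoter table (GRCm38.p6, 250 bases before to 50 after each start) holds a promoter for 695 of the 950 early higher genes. It holds one for 11321 of the 15865 genes tested. The repeats found were too few to compare shares between gene sets, so single promoters are described. The half-site searched was AGGTCA or one of its variants, namely AGTTCA as well as GGGTCA together with GGTTCA, in any pair and on both strands. Repeats with a spacer of 5 bases were present in 31 of 27025 promoters in the table, 0.115%. Of the genes tested 6 held one, 0.053% of those with a promoter. Cfap45, Prokr2 and Tnfsf13b were not early, and Cyp26a1, Rarb and Blvrb were early higher (0.432% of 695). The 120 bases before the start are shown for these 3 genes, 5′ to 3′ along the gene, since they carry the repeat, and for Bco1, a gene of vitamin A metabolism where the spacer is 1 base. Capitals mark the half-sites, which appear as their reverse complement where the repeat is on the other strand.
Cyp26a1: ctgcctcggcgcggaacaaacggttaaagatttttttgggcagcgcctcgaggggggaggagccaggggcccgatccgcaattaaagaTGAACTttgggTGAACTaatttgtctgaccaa
Rarb: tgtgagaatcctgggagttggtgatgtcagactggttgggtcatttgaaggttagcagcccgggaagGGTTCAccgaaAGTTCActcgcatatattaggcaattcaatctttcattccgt
Blvrb: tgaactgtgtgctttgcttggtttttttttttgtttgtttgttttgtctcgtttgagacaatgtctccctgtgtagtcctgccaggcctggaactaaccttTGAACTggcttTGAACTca
Bco1: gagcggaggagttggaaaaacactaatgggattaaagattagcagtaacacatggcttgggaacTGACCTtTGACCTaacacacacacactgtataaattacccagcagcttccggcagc
The stretches are chr19:37697688-37697807 (+) for Cyp26a1, chr14:16575477-16575596 (-) for Rarb, chr7:27452298-27452417 (+) for Blvrb and chr8:117095745-117095864 (+) for Bco1. The repeat lies 32 to 16 bases before the RefSeq start in Cyp26a1, 53 to 37 in Rarb, 19 to 3 in Blvrb and 56 to 44 in Bco1. Blvrb, the biliverdin reductase B gene, averaged 7.44 in RA 4 h, 6.68 in untreated and 6.63 in DMSO 8 h cultures, a rise of 0.76 and 0.80. Repeats with a spacer of 1 base were present in 71 promoters of the table, 0.263%, and in 36 of those of genes tested, 0.318%. Among early higher genes 2 held one, Bco1 and Dnaja2 (0.288%), a share no higher than that of the genes tested. A spacer of 2 bases was found in 84 promoters, 0.311%, and in 14 of those of genes tested, 0.124%. Among early higher genes 3 held one, 1810020O05Rik, Slc7a7 and Tinagl1 (0.432%). A match describes letters in this window and is not shown to be a bound site.

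The other large risers have no single function. Ccdc88b, of a family of linkers to the cytoskeleton, was at 9.23, 8.77 and 9.09 in RA 4 h, 5.84, 5.96 and 5.70 in untreated and 5.91, 6.38 and 6.02 in DMSO 8 h cultures, and rose by 3.20 and 2.93 ± 0.14, as much as Cyp26a1. Rgl3, which activates Ral GTPases, averaged 8.59 ± 0.15 in RA 4 h, 6.15 ± 0.28 in untreated and 5.87 ± 0.36 in DMSO 8 h cultures (SD, n = 3), a rise of 2.44 and 2.72. Npr1, the natriuretic peptide receptor that makes cGMP, rose by 1.96 and 1.73 ± 0.07, Fndc5, the irisin precursor, by 1.98 and 1.88, and Gdap1l1 by 1.88 and 1.87. Agpat3, an acyltransferase of phospholipid synthesis, rose by 1.46 and 1.67, Wnt7b, a Wnt ligand, by 1.55 and 1.42, and Ankrd23 by 1.38 and 1.37. Slx1b, a subunit of a structure-specific nuclease, rose by 1.59 and 1.89, but it shares exon bases with Bola2 on the other strand and with Gm6939, and Efcc1, at 1.81 and 1.79, overlaps an antisense transcript that was early too. Npr1 likewise overlaps the antisense gene Gm16048, itself early higher, and Wnt7b, Ankrd23 and Fam57a share exon bases with other genes, so 6 of the 20 largest risers do. No source used here states how strand was treated in counting, and values of overlapping genes are uncertain. Of 111 genes named by rule, 28 share exon bases with another gene. Sall4, Gfra1, Nanos2, Pim1, Bcl6, Cish, Tgm2, Ncoa3, Meis1, Nr2f1, Ccnd1 and Bhlhe41 are among them. Cyp26a1, Fndc5, Gdap1l1, Tcerg1l, Rarb and Wnt7b averaged under 50 scaled counts in both control groups. They reached the level required for naming through the RA libraries. The 20 genes of largest rise picked by the naming rule were all early without the line term, and all but Stra8 without line 25. With no filter on low values Fndc5, Tcerg1l, Gfra3, Dusp2, Wnt7b and Fam57a lost their calls. Rarb was not tested with the stricter filter.

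Genes of undifferentiated spermatogonia moved in both directions. Of 35 tested, 5 rose and 7 fell (34.3% early, against 11.3% of all genes). Sall4, a zinc finger factor needed in spermatogonia, was at 13.13, 13.14 and 13.15 in RA 4 h, 12.24, 12.13 and 12.26 in untreated and 12.01, 12.04 and 12.21 in DMSO 8 h cultures, and rose by 0.93 ± 0.05 and 1.05 ± 0.05. Eomes, a T-box factor of stem cell subsets, rose by 0.84 and 0.76, and Bcl6b, a GDNF-induced factor, by 0.83 and 0.58. Gfra1, the GDNF co-receptor, rose by 0.26 and 0.40, while Ret, the kinase it partners, fell by 0.42 and 0.16. Ret was at 13.24, 13.07 and 13.12 in RA 4 h, 13.60, 13.48 and 13.61 in untreated and 13.37, 13.26 and 13.29 in DMSO 8 h cultures, just clear of overlap. Nanos2, an RNA-binding repressor of differentiation, was at 7.69, 8.01 and 7.71 in RA 4 h, 8.71, 8.85 and 8.55 in untreated and 8.50, 8.16 and 8.41 in DMSO 8 h cultures, and fell by 0.90 and 0.55 ± 0.11. Zbtb16 (PLZF) was called against untreated alone, at -0.25, and differed by -0.03 from DMSO 8 h (limma adjusted p = 0.68). Eomes and Ret lost their calls without the line term, and Nanos2 and Ret without line 25.

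Feedback inhibitors of ERK signalling rose in part, 4 of 18 tested with 0 lower (22.2% early, against 11.3% of all genes). Spred2, which restrains RAS activation of RAF, was at 11.86, 11.87 and 11.92 in RA 4 h, 10.98, 11.00 and 11.15 in untreated and 11.19, 11.14 and 11.26 in DMSO 8 h cultures, a rise of 0.84 and 0.69 ± 0.04. Dusp2, a nuclear phosphatase of ERK, rose by 1.97 and 1.47, Dusp5, another such phosphatase, by 0.66 and 0.33, and Spry4 by 0.27 and 0.14. Of 25 transcription factors downstream of GDNF and FGF, 6 rose and 5 fell (44% early). Junb, an AP-1 subunit, was at 10.72, 9.94 and 10.58 in RA 4 h, 9.21, 9.34 and 9.08 in untreated and 9.80, 9.18 and 9.46 in DMSO 8 h cultures. Its rise was 1.20 and 0.94 with no overlap. Egr3 rose by 0.74 and 0.91, and Etv1 fell by 1.01 and 0.91. Junb, Egr3, Dusp2, Dusp5 and Spry4 were also called higher with DMSO alone at 4 h in knockout lines, in the comparison described further on. Junb, Egr3 and Spry4 lost their calls without line 17 and without line 25, and Spry4 also without the line term.

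Cytokine and STAT genes counted 3 higher and 7 lower of 23 tested, 43.5% early against 11.3% of all genes; whether falls outnumber rises was not tested. Pim1, a STAT-induced kinase, was the main riser, at 12.10, 12.43 and 12.11 in RA 4 h, 11.48, 11.59 and 11.40 in untreated and 11.35, 11.50 and 11.36 in DMSO 8 h cultures. Bcl6, a repressor, fell by 0.87 and 0.60, Cish, a feedback inhibitor of STAT5, by 0.51 and 0.72, and Socs2 of the same family by 0.43 and 0.63, a call lost without the line term and without line 23 or 25. Of 14 Hox genes that passed the filter, 4 rose and 0 fell (28.6% early, against 11.3% of all genes). These were Hoxb4 by 0.96 and 0.99, Hoxb13 by 1.07 and 0.92, Hoxb3 by 0.52 and 0.62 and Hoxb5 by 0.45 and 0.57. All 4 are in the Hoxb cluster, but another 25 Hox genes were below the filter. They included every Hoxd gene and, of the Hoxb cluster, Hoxb1 alone, so the filter largely set which clusters could be called. Hoxb5 was near the filter level in the controls. Hoxb3 and Hoxb5 overlap antisense transcripts and lost their calls without the line term. The Hoxb3 call was also lost without line 23 or 25, and the Hoxb5 call without line 17 or 25. Among 19 clock genes 1 rose and 4 fell (26.3% early). The falls included Bhlhe41, a transcriptional repressor, by 0.64 and 0.65, and Arntl, the BMAL1 gene, by 0.54 and 0.53. Of 30 p53 targets and apoptosis genes, 4 rose, Gadd45g by 0.67 and 0.59 the most, and 7 fell (36.7% early). Among the 7 was Zmat3, by 0.52 and 0.48.

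Other lists, feeder fibroblast and germ cell markers apart, held early genes in shares from 0% to 21.6%, against 11.3% of all genes tested. Of 14 germ cell markers 3 rose, namely Sall4, Gfra1 and Dazl, and 1 fell, Ret (28.6% early). No gene of 38 for oxidative phosphorylation was early by limma, and 2 were higher at unadjusted p under 0.05 in both comparisons. Atp5b, an ATP synthase subunit, averaged 14.43 in RA 4 h, 14.41 in untreated and 14.45 in DMSO 8 h cultures. Of the lists with no early lower gene by limma, at the same unadjusted limit the meiotic list had 0 lower, the ERK feedback list 1 and the Hox list 2. In G1/S phase 2 rose and 2 fell of 32 (12.5% early), and in G2/M phase 1 rose of 30 (3.33%). Ccne1, the cyclin of S phase entry, rose by 0.35 and 0.23, and Ccnd1 fell by 0.16 and 0.46, both calls lost without the line term. The Ccne1 call was also lost without line 17 or 25, and the Ccnd1 call without any one line. Cholesterol synthesis had 1 higher and 1 lower of 24 (8.33%), and TGF-beta and BMP signalling 2 higher and 1 lower of 29 (10.3%). In the Notch and Wnt pathway 3 rose and 5 fell of 37 (21.6%), with Dtx4, a Notch regulator, down by 1.27 and 0.47. Lgr5, a Wnt co-receptor, fell by 0.36 and 0.70, a call lost without the line term and without line 17 or 25. Handling and stress genes counted 3 higher and 2 lower of 26 (19.2%). Wt1, counted as a Sertoli cell marker, rose by 1.02 and 1.07 with overlapping libraries, a call lost without the line term. The summed Sertoli cell markers stood at 15.4 to 15.5 units of 1000 scaled counts in RA 4 h, 14.6 to 15.7 in untreated and 15.5 to 16.1 in DMSO 8 h cultures, but most of this sum is Dmrt1, which spermatogonia express too, and Ctsl, and it does not measure Sertoli cells. Without these 2 genes, left out after their values were seen, the other 13 tested, Wt1 included, summed to 1 to 1.5 units in RA 4 h, 0.922 to 1.23 in untreated and 1.01 to 1.24 in DMSO 8 h cultures. The part of Sertoli cells in the rise of Wt1 was not tested.

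**Figure D3:**
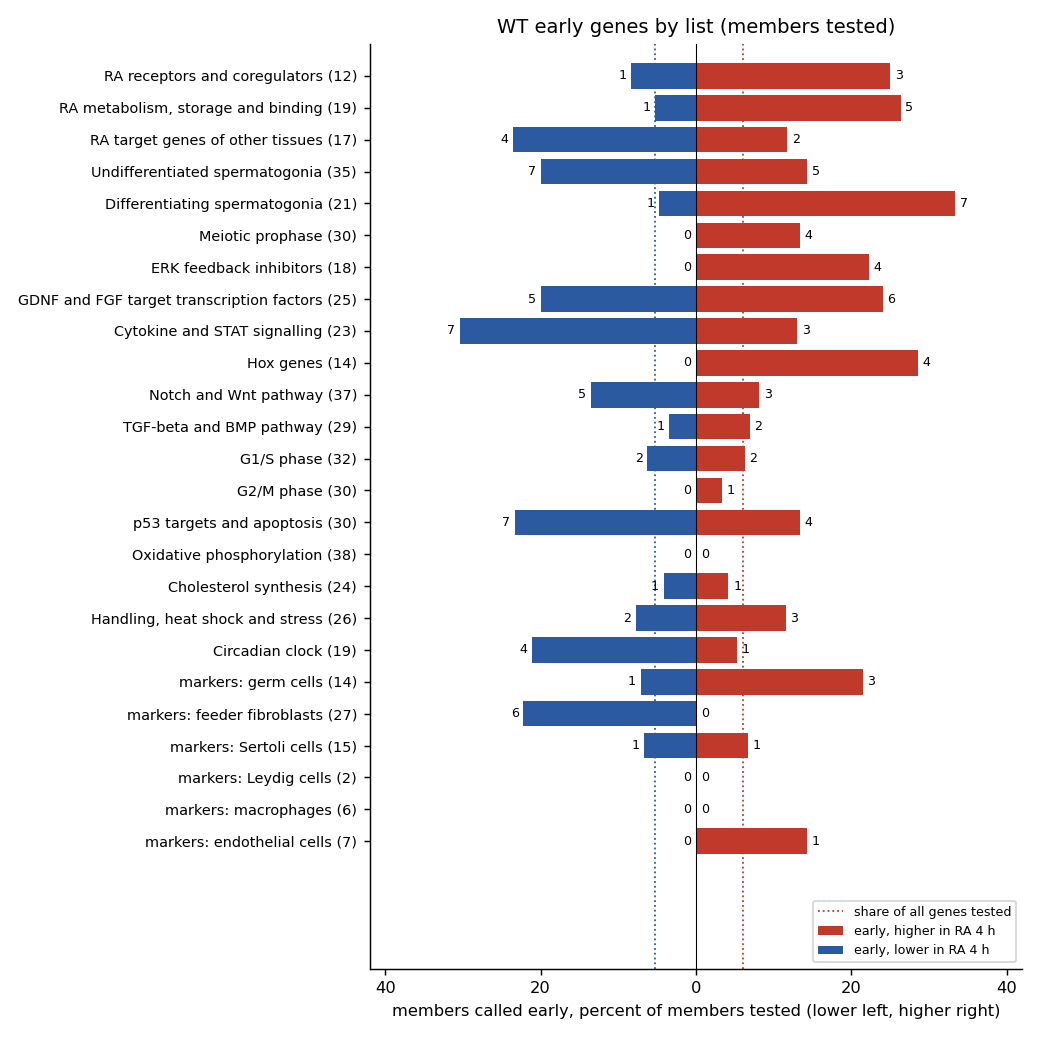
Share of each list's tested members that were early, higher to the right and lower to the left, with counts at the bar ends, members tested in brackets and dotted lines at 5.99% and 5.3% for all genes. Differentiating spermatogonia have 7 higher and 1 lower, feeder fibroblast markers 0 higher and 6 lower, and oxidative phosphorylation has none.

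Among the genes that fell, none reached 2-fold against both controls. Several of the 15 largest are best known in connective tissue or vessels: Sdpr of caveolae, the progenitor marker Cd34, the matrix proteins Fbln2 and Fbln5, and Osr1 and Pcdh18. Sdpr was at 6.08, 6.86 and 5.81 in RA 4 h, 7.64, 8.03 and 7.36 in untreated and 7.46, 7.51 and 6.60 in DMSO 8 h cultures, with overlap between RA 4 h of line 23 and DMSO 8 h of line 25. Cd34 averaged 8.01 ± 0.40 in RA 4 h, 8.94 ± 0.17 in untreated and 8.93 ± 0.35 in DMSO 8 h cultures (SD, n = 3). Of the feeder markers themselves 0 rose by limma (0 also at unadjusted p under 0.05) and 6 of 27 fell (22.2% early, against 11.3% of all genes). Their median differences were -0.85 from untreated and -0.38 from DMSO 8 h. Loxl1 and Col6a1, of the extracellular matrix, fell by 0.99 and 0.71 and by 1.25 and 0.56. The part of feeder RNA in the fall of these genes was not tested. Sdpr and Pcdh18 lost their calls without the line term, and Fbln5 and Col6a1 without line 25.

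Other genes that fell were Enc1, Irgm2, Ifi47, Cachd1, Pde4b, Map2k6, Arid5b, Pla2r1 and Tspan11. Enc1, an actin-binding protein at a high level, was at 10.93, 11.14 and 11.07 in RA 4 h, 11.79, 11.89 and 11.99 in untreated and 11.69, 11.88 and 12.05 in DMSO 8 h cultures, a fall of 0.85 and 0.83 ± 0.05 and the smallest error among them. Irgm2 and Ifi47, interferon-induced GTPases, fell by 1.15 and 0.83 and by 1.57 and 0.89. Cachd1, a calcium channel subunit relative, fell by 0.82 and 1.15, and Pde4b, a phosphodiesterase of cAMP, by 1.07 and 0.89. The groups did not overlap for these 5 genes. Cd34, Ifi47, Irgm2 and Pla2r1, 4 of the 15 largest falls, share exon bases with other genes.

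Vehicle alone at 4 h could be read in few libraries. In Stra8-knockout (KO) lines 12 and 21, with the DMSO 4 h library of line 20 left out because the authors' column name says that it tracked with RA 24 h, DMSO 4 h was set against the same brackets. There 172 genes were higher (1.09%) and 66 lower (0.42%), and 73 of 939 WT early higher genes (7.77% of them and 42.4% of the KO list) and 49 of 840 early lower genes (5.83% and 74.2%) moved the same way. These vehicle calls rest on 2 lines and the line term: 1 gene was called without it, and 0 with line 20 included by limma, where 283 had unadjusted p under 0.05 in both comparisons. Junb was 1.57 and 1.42 higher in KO DMSO 4 h than in KO untreated and KO DMSO 8 h cultures, Egr3 1.24 and 1.46, Sox8 0.88 and 0.89, Dusp2 0.87 and 0.49, Dusp5 0.60 and 0.52, and Bcl6b 0.63 and 0.58. Ifi47 differed by -1.30 and -0.91, Irgm2 by -1.07 and -0.90, and Sdpr by -0.91 and -1. Cd34, at -0.45 and -0.71, Fbln2, at -0.30 and -0.48, and Zmat3, at -0.34 and -0.39, were called lower there too, so 5 of the 15 largest falls and 2 of the 20 largest rises, Dusp2 and Sox8, had a vehicle call of the same direction. Tgfb1 was called higher there, at 0.50 and 0.45. Stra8, at 0.20 and 0.23, Cyp26a1, at 0.30 and 0.22, Kit, at -0.23 and 0.13, and Rec8, at -0.20 and 0.06, were not called there. Nor were Nr2f1, at -0.79 and -0.77, Meis1, at -0.81 and -0.36, and Meis2, at -0.49 and -0.22.

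In WT the DMSO 4 h library of line 17 allows 1 direct pair with no replicate. RA 4 h minus DMSO 4 h in line 17 was 4.60 for Stra8, 3.39 for Cyp26a1, 2.09 for Kit, 1.49 for Rec8, 0.86 for Sall4 and -0.89 for Enc1. It was 0.84 for Sox8, 0.36 for Junb, -0.29 for Egr3, 0.12 for Bcl6b, 0.14 for Dusp5, -0.26 for Cd34 and 0.01 for Osr1. For Meis1, Meis2 and Nr2f1 it was -0.36, -0.18 and 0.37. Over the 20 largest named risers the median was 1.89 in this pair, 1.73 in the bracket and 0.10 for KO vehicle. The pair and the bracket share the RA 4 h library of line 17, and the genes were chosen on the bracket, so the first 2 values are not independent. Over the 15 largest named falls it was -0.26 in the pair, -0.98 in the bracket and -0.51 for KO vehicle. The whole lists moved less. Over all 950 early higher genes the median was 0.19 in the pair, 0.34 in the bracket and 0.10 for KO vehicle. Over all 841 early lower genes it was -0.16 in the pair, -0.43 in the bracket and -0.17 for KO vehicle.

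**Figure D4:**
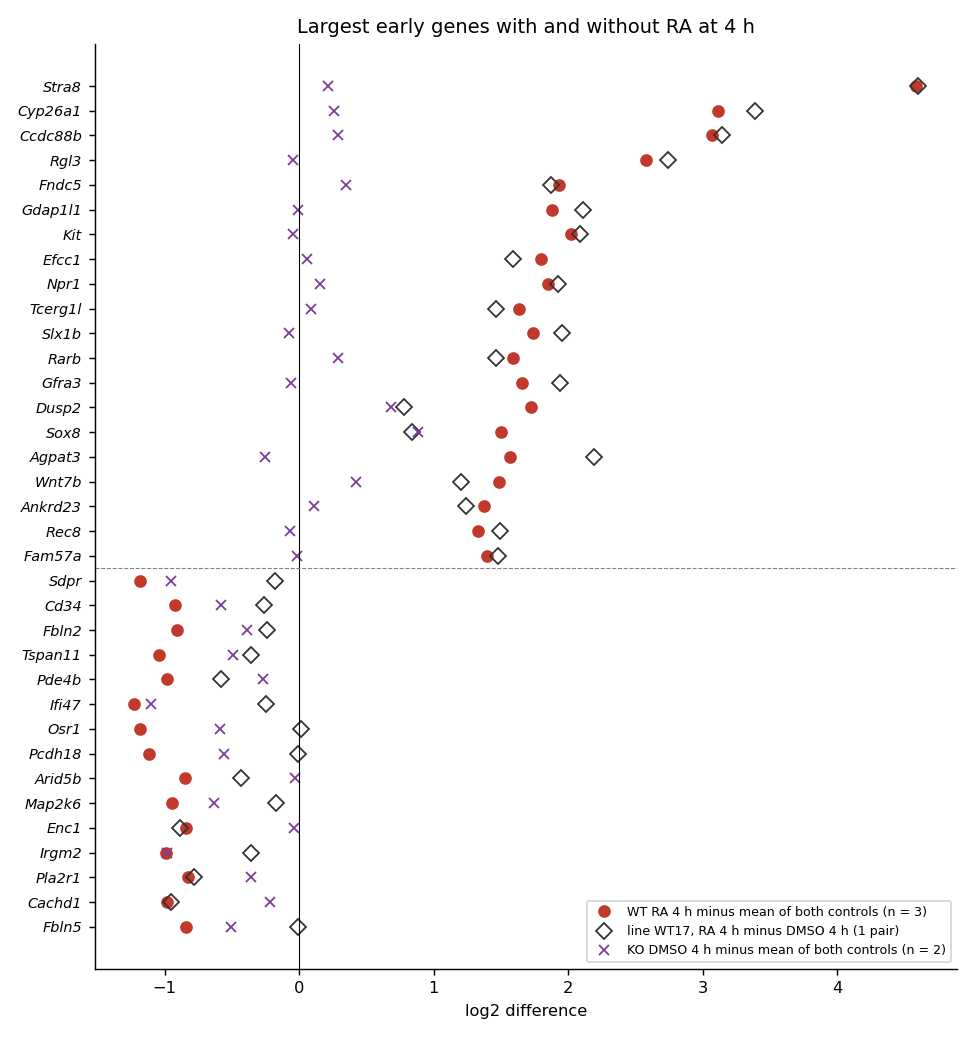
Log2 differences of the 20 largest named risers (above the dashed line) and 15 largest falls, as WT RA 4 h minus the mean of both controls (circles), RA 4 h minus DMSO 4 h in line WT17 (diamonds) and KO DMSO 4 h minus the mean of both controls (crosses). Crosses lie near 0 for most risers but not for Dusp2 and Sox8, and beside the circles for Irgm2 and Ifi47.

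The later libraries of the same lines show which early changes lasted. At 24 h RA was compared with DMSO 24 h, libraries that the early call did not use. The spread in this fit came from 18 WT libraries, the 9 of the early call among them, so the 2 calls are not fully independent. Of 950 early higher genes, 366 were higher there too (38.5%, against 20.8% of all tested genes) and 182 were lower (19.2%, against 22.4%). Of 841 early lower genes, 349 were lower (41.5%, against 22.4%) and 74 higher (8.8%, against 20.8%). As a share of the 24 h lists these are 11% and 9.68%, and without line 25 the 24 h count fell to 4436, against 6945 as fitted. Among the 48 that rose 2-fold or more, 35 were higher at 24 h and 1 was lower. Stra8 averaged 14.50 ± 0.35 in RA 24 h and 7.68 ± 0.19 in DMSO 24 h, and Kit 12.87 ± 0.13 and 9.26 ± 0.27 (SD, n = 3). Cyp26a1 stayed at 8.40 ± 0.08 in RA 24 h against 5.14 ± 0.09 in DMSO 24 h, and Cyp26b1, not early, was at 6.60 ± 0.71 against 4.04 ± 0.19, 2.55 higher.

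Other early genes were back or reversed at 24 h. Sox8 averaged 7.97 ± 0.11 in RA 24 h and 8.16 ± 0.16 in DMSO 24 h, and Spred2 10.95 ± 0.07 and 10.94 ± 0.09, neither called. Gfra1, early higher, was 0.79 lower at 24 h, and Bcl6b 1.24 lower, at 11.40 ± 0.01 in RA against 12.65 ± 0.21 in DMSO (limma adjusted p = 3.6e-08 and 2e-05). Eomes was 0.45 lower and Tgfb1, early higher by 0.51 and 0.28, was 0.85 lower. The early call of Tgfb1 was lost without the line term and without line 17 or 25. Nanos2 went on falling, with 5.88 ± 0.18 in RA 24 h against 8.57 ± 0.07 in DMSO 24 h, and Enc1 had 10.19 ± 0.12 against 11.86 ± 0.12. Of the connective tissue genes, Sdpr was 1.39 higher in RA 24 h, and Cd34, at 0.03, and Fbln2, at -0.24, were not called. At 8 h RA shares its DMSO 8 h control with the early call, so values are only set side by side: RA minus DMSO 8 h was 5.54 at 8 h and 4.92 at 4 h for Stra8, 2.60 and 2.22 for Kit, and 0.37 and 1.46 for Sox8.

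**Figure D5:**
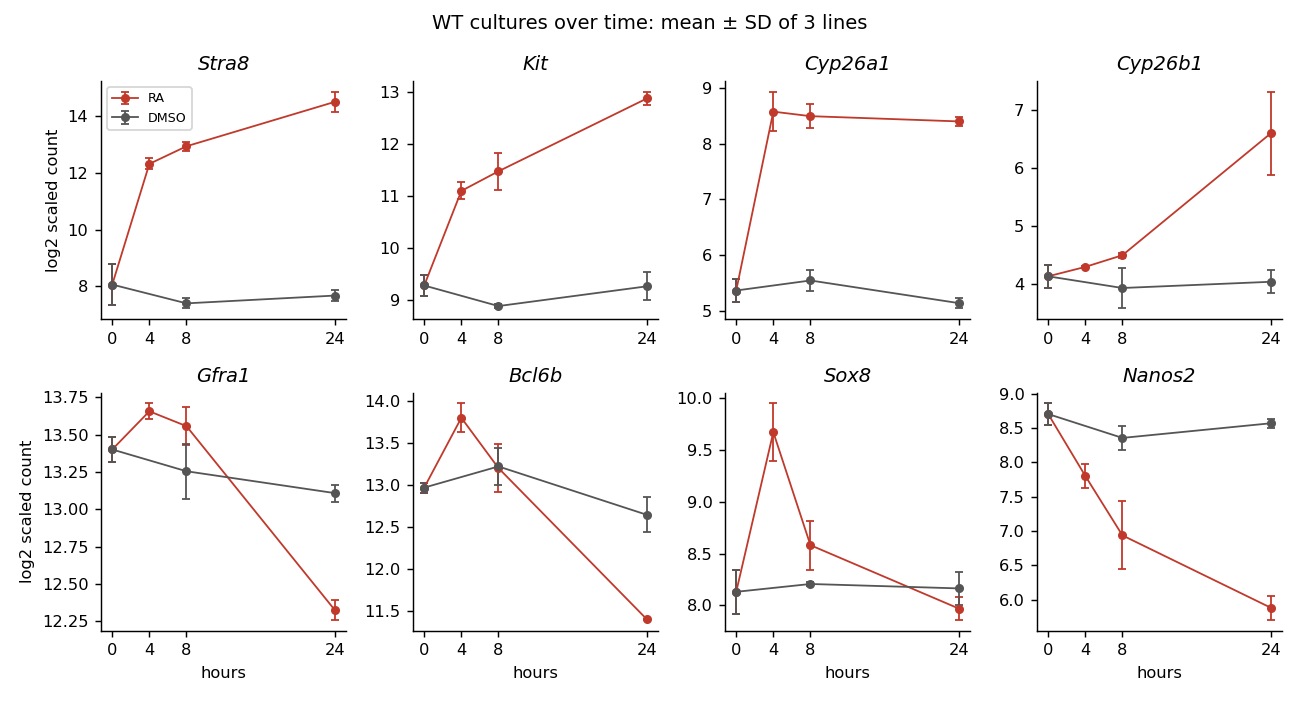
Mean log2 scaled count ± SD of 3 WT lines at 0, 4, 8 and 24 h with RA (red) or DMSO (grey, without 4 h) for 8 genes. With RA, Stra8 and Kit keep rising to 24 h, Cyp26a1 is level from 4 h, Cyp26b1 rises late, Sox8 peaks at 4 h, Gfra1 and Bcl6b end below DMSO, and Nanos2 falls throughout. In the DMSO 4 h library of line WT17, not drawn, Sox8 was at 8.99 and Bcl6b at 13.65, against 9.83 and 13.77 in RA 4 h of that line.

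The same brackets in KO lines 12, 20 and 21, which share no library with WT, held much of the early response. KO libraries are from Stra8-knockout mice, and Stra8 averaged 8.39 ± 0.06 in RA 4 h, 6.39 ± 0.09 in untreated and 6.43 ± 0.20 in DMSO 8 h KO cultures (SD, n = 3). Of the WT early higher genes, 700 of 949 were early higher in KO (73.8% of them and 52.9% of the KO list, against 8.35% of all tested genes). Of the early lower genes, 436 of 840 were early lower (51.9% and 50.8%, against 5.41%), and none was called in the opposite direction. All 48 genes that rose 2-fold or more were early higher in KO. Kit rose there by 1.72 and 2.11, Cyp26a1 by 3.66 and 3.52, Rarb by 2.11 and 2.05, Rec8 by 1.31 and 1.53, and Ccdc88b by 3.68 and 3.49. The KO list itself fell to 1089 genes without line 12, 978 without line 20 and 863 without the line term, against 2181 as fitted.

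The difference between genotypes was tested as an interaction. Of 16026 genes, 1 differed in both comparisons, Irf1, an interferon regulatory factor, at 0.46 and 0.47 as KO minus WT (limma adjusted p = 0.0044 and 0.0036), and 290 had unadjusted p under 0.05 in both. For Stra8 the difference was -2.26 against untreated and -2.95 against DMSO 8 h (limma adjusted p = 0.28 and 0.043). Sycp1 was not called in KO, at -0.02 and -0.03, but its KO minus WT difference of -0.33 and -0.34 did not pass the test (limma adjusted p = 0.45 and 0.22).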

How the data were processed

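RNA of mouse germ cell cultures was sequenced from a stranded mRNA kit. Isolation took place within 1 day and integrity numbers were 9.2 or more, per the labels' protocols. Alignment tool STAR 2.5.1b, DESeq and GRCm38.p4 stand in the submitters' processing notes, which give them no role. The read counter is not given in the sources used here. The deposited table holds 46983 genes and 42 libraries as log2 values that the authors had scaled between libraries. Whether changes of low genes were shrunk in making them is not given in the sources used here. A mean signal per gene (scaled counts), deposited by the authors, was not tested. The labels list 43 samples, 2 of them for WT17 at RA 24 h, which 1 column of the table holds.

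Genes with at least 10 scaled counts in at least 3 of the 9 libraries were kept (15865). Group means with line as a block were fitted in R 4.3.3 by limma 3.58.1 (trend and robust options, 4 residual degrees of freedom), with Benjamini-Hochberg adjustment over all genes tested and a threshold of 0.05. Each line occurs in every group, so lines pair the samples: deviations from group means correlated at 0.187 to 0.514 within a line (9 pairs) and -0.352 to 0.0737 between lines (18 pairs). A test on raw counts was not used because the values are not counts. The fits for 24 h (18 WT libraries), KO and vehicle were made in the same way. The procedure was tested on simulated data.

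Named were the 20 higher and 15 lower early genes of largest size with a mean of at least 50 scaled counts in the group where they were higher, that moved the same way in all 3 lines, without predicted models and pseudogenes, 11 genes always named, and up to 4 early members of each list. Other genes named were chosen after their values were seen. The members and lists were chosen with earlier results of these data known. Alternatives covered the line term, filters, scaling, the libraries in the fit, thresholds, and each line left out. Results for some list members are not reported here.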

Additional observations from a re-analysis of the deposited data

Results flagged for a closer look

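Genotypes were compared by an interaction test of the RA 4 h effect (3 KO and 3 WT lines). Irf1 was flagged because KO and WT differed against both controls, by 0.46 against untreated 0 h and 0.47 against DMSO 8 h as KO minus WT (limma adjusted p = 0.0044 and 0.0036). In KO it was higher in RA 4 h by 0.31 over untreated and 0.07 over DMSO 8 h, whereas in WT the differences were -0.15 and -0.40. Irf1 was chosen after its values were seen. Stra8 was flagged because its RA 4 h effect against DMSO 8 h was lower in KO, by -2.95 (limma adjusted p = 0.043). Stra8 is the gene targeted in the KO lines.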

How the results depend on the processing

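The early count of 1791 stayed within 1.5 times with line as a random effect (1559), the stricter filter of 50 (1675), quantile normalization (1609), median centring (1957) and the spread taken over 18 WT libraries (1828). Counts against untreated, against DMSO 8 h, of DMSO 8 h against untreated and of early genes were 2810, 1506, 982 and 889 with no replicate block, 806, 175, 0 and 131 with no filter, 1784, 845, 372 and 479 over all 42 libraries with no replicate block, 2557, 1555, 1091 and 903 at adjusted p under 0.01, and 833, 465, 371 and 245 with a minimum of 1.5-fold. Without the trend and robust options the last 3 were 1883, 1357 and 1155. The unfiltered fit held 46983 genes, and its 0 by limma for DMSO 8 h had 4814 genes at unadjusted p under 0.05. Set against the mean of the 6 controls, 4136 genes were called.

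Without 1 line the same 4 counts ranged over 1981 to 4105, 1243 to 2516, 670 to 2015 and 678 to 1556, the lowest always without line 25. The RA 24 h count of 6945 ranged over 4436 to 6637, and the KO early count of 2181 over 978 to 2093, with 863 with no replicate block. The KO vehicle count of 238 became 1 with no replicate block and 0 with line 20 included. Of 103 named early genes, 72 kept their call with no replicate block, 88 without line 17, 92 without line 23 and 67 without line 25. Fewer kept it in other settings: 23 with no filter, 41 over all 42 libraries with no replicate block, and 57 with a minimum of 1.5-fold. With the stricter filter 95 did, since genes such as Rarb were not tested there.

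Against the DMSO 4 h library of line 17, 10 named genes turned sign: Osr1 (0.007), Nr2f1 (0.374), Spry4 (-0.171), Etv1 (0.021), Egr3 (-0.286), Socs2 (0.088), Dtx4 (0.17), E2f2 (0.084), Dbp (0.017) and Dazl (-0.012). Among genes that were not early, Atp5b was 0.009 and Atp5a1 0.001 against DMSO 8 h with median centring, and Atp5a1 was -0.02 against untreated with quantile normalization. Without 1 line, ranges that crossed 0 were -0.275 to 0.063 against untreated and -0.053 to 0.154 against DMSO 8 h for Mrc1, -0.001 to 0.054 and -0.032 to 0.008 for Atp5b, -0.201 to 0.187 against untreated for Cyp11a1, and -0.051 to 0.002 against DMSO 8 h for Zbtb16. The causes were not tested. Depth is unknown.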

Other observations

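Some early higher genes were next to one another. Of the 162 that rose 1.5-fold or more, 33 lay next to another such gene, in 18 pairs, as neighbours in the order of tested genes; no expectation was computed. In 5 of these pairs, among them Npr1 and Gm16048, the genes overlap and may share reads. Wdr91, an endosomal protein gene 9287 bp from Stra8, averaged 10.70 in RA 4 h, 9.39 in untreated and 9.35 in DMSO 8 h cultures. Hpca lay 14963 bp from Fndc5 and rose by 1.49 and 1.27, Epor, the erythropoietin receptor gene, 7951 bp from Rgl3, by 1.04 and 0.88, and Rps6ka4, an MSK kinase gene, 4022 bp from Ccdc88b, by 1.00 and 0.70. These genes were chosen after their values were seen.

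Protein-coding genes made up 96.4% of the early higher and 96.1% of the early lower genes, against 89.4% of all genes tested. The median level over the 9 libraries was 10.32 for early higher, 8.59 for early lower and 8.91 for all tested genes.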
